A study of Danio rerio with 12 samples.

Results

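The cell cycle genes of proliferating cells were followed in brains of adult zebrafish, 34 genes in all, chosen by name for their roles in DNA replication and cell division. In the deposited count table they correspond to 36 of 32105 gene identifiers, since MCM6 and RRM2 each stand for 2 identifiers. Symbols were matched ignoring case; birc5a was found under the symbol BIRC5, and RRM2B, a different gene, was not taken as RRM2. A total of 35 identifiers passed the filter on low counts (more than 0.5 CPM, counts scaled to a common library size, in at least 4 libraries), and the 1 that did not, MCM6 (ENSDARG00000033231), had 0 to 8 counts per library.

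Brain RNA of male zebrafish aged 6 months was sequenced in 12 libraries, 4 in each of 3 groups. The groups were wild type, actb1::miR-29sponge (the actb1 line) and kif5a::miR-29sponge (the kif5a line). The sponge RNA carries sites that miR-29, a microRNA, binds, which takes that microRNA away from its usual targets. Of the promoter names, actb1 is a broadly expressed actin gene while kif5a is a neuronal kinesin gene. The labels used here do not say whether a line descends from 1 founder, how many fish went into a library or whether libraries of a group are separate fish, so p-values measure the spread between libraries, which may be technical.

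The adult zebrafish brain keeps dividing cells along its ventricles, where radial glia act as neural stem cells and produce new neurons throughout life. Before S phase, the origin recognition complex with CDC6 and CDT1 loads the MCM2 to MCM7 helicase onto DNA, which geminin (GMNN) later blocks. PCNA, FEN1 and RPA1 work at the replication fork, cyclins with their kinases time the steps, and the aurora and polo kinases with the BUB1 checkpoint run mitosis. In bulk brain RNA, fewer dividing cells and less RNA of these genes per dividing cell cannot be told apart, and the dividing cells can also be glial precursors, leukocytes or vessel cells.

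Values given library by library are in the order 1 to 4 within each group, a numbering that only names the libraries. The libraries held between 20884576 and 33573243 counts. Brain markers were present throughout, with the neuronal gene SNAP25 (ENSDARG00000020609) at 2471 to 3984 CPM and the radial glia gene gfap at 154 to 359 CPM. Markers of other cells differed between libraries. The 16 tested leukocyte genes summed to 77.3, 452, 79.9 and 280 CPM in wild type, against 93.8 to 176 for actb1 and 81.3 to 118 in the kif5a line. The 19 tested microglia and macrophage genes summed to 927, 2271, 1045 and 2170 CPM in wild type, to 2584 in actb1 sponge 3, to 1118 to 1767 in the other actb1 libraries and to 870 to 1093 in the kif5a line. The 22 tested photoreceptor genes summed to 290 to 534 CPM in actb1 sponge 1 to 3 and kif5a sponge 2 and 3, and to 12.7 to 35.3 in the other 7 libraries. None of these marker genes was at 0 in all libraries. Their log2 differences had medians of -0.68 and -0.89 (leukocyte), -0.27 and -0.70 (microglia) and 4.01 and 3.44 (photoreceptor) for actb1 and kif5a against wild type.

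Per length, most of the proliferation genes were expressed at low levels in the wild-type brain. RPKM (reads per kilobase of gene length, scaled to library size) was recomputed from the counts with the gene lengths that the deposited RPKM values imply. In wild type, 6 identifiers stood above 5 RPKM, 20 between 1 and 5, and 10 below 1, and the median of the 35 tested was 2.08 RPKM against 5.56 over all genes tested. PCNA, the sliding clamp of DNA polymerase, was highest with 41.0 ± 2.95 RPKM (SD, n = 4), followed by RPA1, a subunit of the single-strand binding protein RPA, with 25.3 ± 0.751 RPKM and the flap endonuclease gene FEN1 with 11.1 ± 1.02 RPKM. All 3 proteins also serve DNA repair, which non-dividing cells carry out too. MCM7 followed with 8.75 ± 4.58 RPKM, CCND1 with 7.07 ± 0.689 RPKM and RRM1 with 6.79 ± 0.526 RPKM, and these 3 did not differ beyond their spread. The genes of mitosis were lower, from TOP2A, which encodes DNA topoisomerase II alpha, with 3.34 ± 0.407 RPKM to the checkpoint kinase gene bub1 with 0.517 ± 0.136 RPKM. CCNB2, a B-type cyclin gene, was the lowest tested member with 0.282 ± 0.0827 RPKM, resting on 10 to 25 counts per library.

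The 35 tested identifiers were not called different between groups, with 1 exception. All 12 libraries were fitted in 1 model by the quasi-likelihood test of edgeR, p-values were adjusted after Benjamini-Hochberg over 19645 genes, and a gene was called at an adjusted p under 0.05. In the actb1 line against wild type 0 members were called higher, against 0.28% of all genes, and 1 lower, RRM2 (ENSDARG00000078069), against 0.458% of all genes, or 0.738% in both directions together. In the kif5a line against wild type 0 members were called, against 0.534% of all genes (0.112% higher, 0.422% lower), and between the 2 lines also 0, against 1.18% of all genes (0.641% higher, 0.54% lower). With an unadjusted p under 0.05, 1 member was higher and 7 were lower in the actb1 line, where 7.8% and 8.85% of all genes were. In the kif5a line 2 were higher and 2 lower, where 4.54% and 6.78% of all genes were, and 1 was higher and 6 were lower in the actb1 than in the kif5a line, where 8.19% and 8.06% of all genes were. DESeq2 called more: 3 members in the actb1 line (RRM2, ENSDARG00000078069, plk1 and CCNB1), where it called 4.75% of all genes, 1 in the kif5a line (the same RRM2 identifier), where it called 2.22%, and 1 between the lines (CCNB1), where it called 4.84%. limma voom called 0 members in each comparison.

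Groups without overlap were counted over the same 35 members. Against wild type, 1 member lay wholly higher and 3 wholly lower for actb1, where 4.08% and 5.25% of all genes did, and 2 higher and 3 lower for kif5a, where 4.26% and 4.99% did. Between the lines 1 lay higher and 0 lower, where 4.68% and 5.7% of all genes did.

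**Figure D1:**
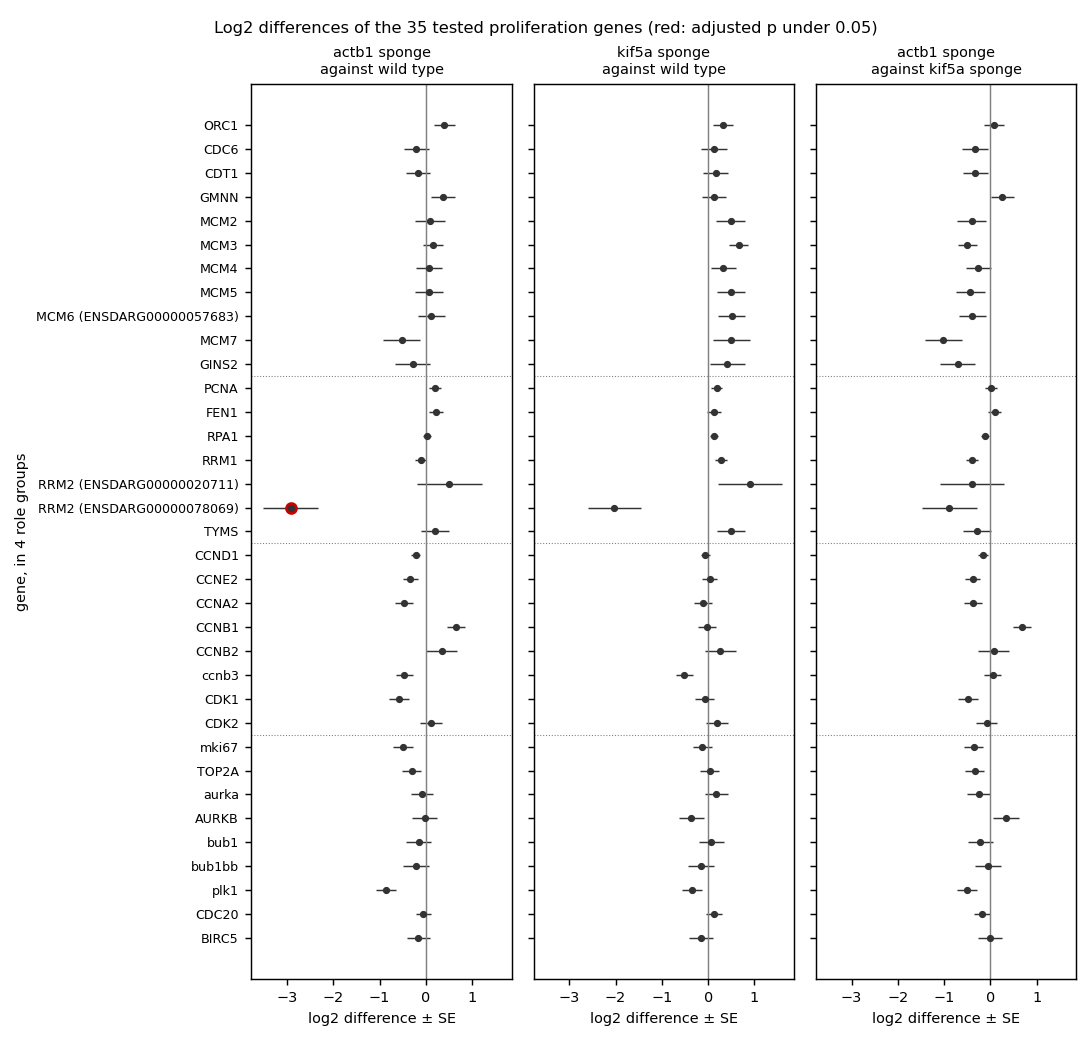
Log2 differences with the standard error of the fit (x axis) for the 35 tested proliferation genes (y axis), in 3 panels for the 3 comparisons; red marks an adjusted p under 0.05. The single red point is RRM2 (ENSDARG00000078069) in the actb1 line against wild type, at -2.92, and the 11 licensing and helicase genes all lie right of 0 in the kif5a line against wild type.

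The median log2 difference of the 35 was -0.08 in the actb1 line, 0.13 for kif5a and -0.29 between the actb1 and kif5a lines. The medians over all genes tested were -0.03, -0.01 and -0.00. With 1 library left out, the median of the members ran from -0.21 (without actb1 sponge 3) to 0.026 (without actb1 sponge 2) for actb1, from 0.09 to 0.16 for kif5a, and from -0.39 (without actb1 sponge 3) to -0.13 (without kif5a sponge 1) between the lines. In the actb1 line 15 of 35 had a positive value (46.1% of all genes did), in the kif5a line 24 of 35 (48.9% of all genes), and between the lines 8 of 35 (49.4% of all genes). The comparisons with wild type share the 4 wild-type libraries, and each line enters 2 comparisons.

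Libraries of the same group differed widely in these genes. Of the 35 members, 31 were above their own median over the 12 libraries in kif5a sponge 1, and 27, 25 and 14 in kif5a sponge 2, 3 and 4. In the actb1 line the counts were 5, 2, 26 and 12 for sponge 1 to 4, and in wild type 10, 27, 11 and 20. The share of all genes above their own median was 49.5% to 51.0% in each library. Actb1 sponge 3 thus held many high values in a line whose other 3 libraries were mostly low. That library also stood apart in its cell type markers, with the lowest sums of neuron genes (6780 CPM against 8523 to 10148 in the others), oligodendrocyte genes (12454 CPM) and newborn neuron genes (2590 CPM) and the highest of ependyma (72.4 CPM) and radial glia genes (8555 CPM). The wild-type libraries high in these genes, 2 and 4, were those high in leukocyte and microglia genes, while kif5a sponge 1 was low in both lists. Actb1 sponge 3 had the highest summed CPM of microglia genes, but by their mean log2 value (0.21) it was below wild type 2 and 4 and actb1 sponge 4 (0.69, 0.72 and 0.40). The part of those cells in the values was not tested.

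**Figure D2:**
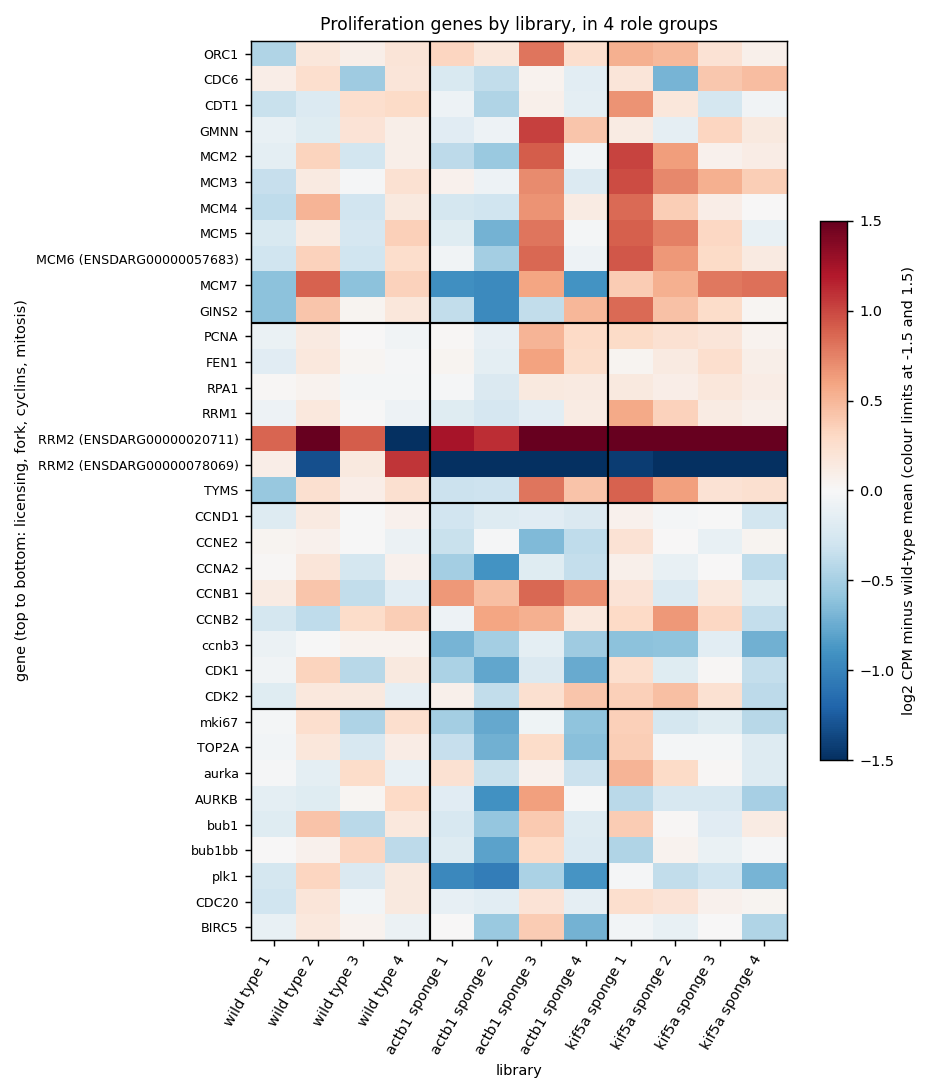
Log2 CPM of the 35 tested genes (y axis, in the 4 role groups separated by lines) in each of the 12 libraries (x axis, grouped by strain), relative to the wild-type mean. Actb1 sponge 3 and kif5a sponge 1 and 2 are red over most licensing genes, and actb1 sponge 2 is blue in most rows. Wild type 2 and 4 and kif5a sponge 3 and 4 are also red over most licensing genes, with lower means (0.25, 0.21, 0.28 and 0.18). The RRM2 (ENSDARG00000078069) row is blue in every sponge library and in wild type 2.

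The genes of origin licensing and the helicase stood higher in the kif5a line than in wild type in value, though edgeR, DESeq2 and limma voom called 0 of them. All 11 tested had a positive log2 difference, with a median of 0.42 and a range of 0.12 to 0.66. In the actb1 line 7 of 11 were positive with a median of 0.07, and between the lines 9 of 11 were negative with a median of -0.39. Leaving out 1 library gave medians of 0.24 (without wild type 1) to 0.54 (without wild type 2) for kif5a. For actb1 the median ran from -0.21 without sponge 3 to 0.28 without sponge 2, and between the lines the same omissions gave -0.63 and -0.20. By library, their mean log2 value relative to wild type was 0.67, 0.36, 0.28 and 0.18 in kif5a sponge 1 to 4, -0.21, -0.44, 0.56 and -0.03 for actb1 and -0.31, 0.25, -0.15 and 0.21 in wild type 1 to 4. The kif5a libraries therefore lay within or above the wild-type range of this group.

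MCM3, a subunit of the helicase ring, had 5.89, 8.23, 7.43 and 8.81 CPM in wild type, 7.88, 7.14, 12.3 and 6.50 for actb1 and 14.8, 12.4, 10.9 and 9.72 for kif5a. All 4 kif5a libraries were above all 4 of wild type, a separation found upward for 4.26% of all genes tested, while the actb1 libraries overlapped both groups. The log2 difference was 0.66 ± 0.21 (SE) in the kif5a line (edgeR adjusted p = 0.267), 0.16 ± 0.21 in the actb1 line (adjusted p = 0.732) and -0.50 ± 0.21 between the lines (adjusted p = 0.274). MCM2, MCM4, MCM5 and MCM6 (ENSDARG00000057683) had log2 differences of 0.33 to 0.51 for kif5a and of 0.06 to 0.12 for actb1, and their groups overlapped.

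MCM2 to MCM6 were each highest in kif5a sponge 1 and lowest in wild type or actb1 libraries, while MCM7 was highest in wild type 2. The mean CPM of MCM2 to MCM6 was 6.83 to 10.2 in wild type, 6.16 to 14.5 for actb1 and 8.95 to 15.9 in the kif5a line. MCM7 had 13.1, 37.5, 13.1 and 25.7 CPM in wild type, 10.6, 10.3, 30.5 and 10.8 for actb1 and 26.2, 29.3, 35.0 and 35.8 for kif5a. The values fell into 5 libraries below 14 CPM (wild type 1 and 3, actb1 sponge 1, 2 and 4) and 7 above 25 CPM, with none between. In units of the mean of the other 5 subunits, MCM7 stood at 1.86 to 3.66 in wild type, 1.34 to 2.11 for actb1 and 1.65 to 4.00 in the kif5a line. Within the kif5a line sponge 1 had the most MCM2 to MCM6 and the least MCM7. The log2 difference of MCM7 was -0.52 ± 0.40 in the actb1 line, 0.50 ± 0.40 in the kif5a line (edgeR adjusted p = 0.531 and 0.716) and -1.02 ± 0.40 between the lines (adjusted p = 0.24). Without actb1 sponge 3 the log2 difference of MCM7 was -1.06 against wild type and -1.56 against the kif5a line. Without wild type 2 it was -0.15 against wild type.

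**Figure D3:**
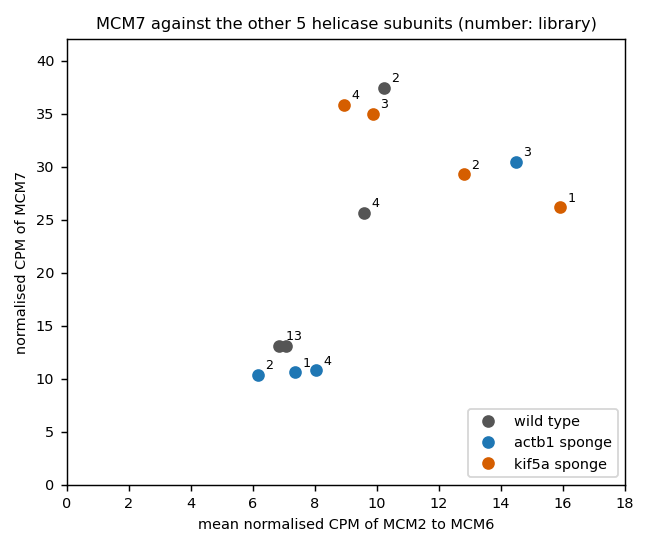
Normalised CPM of MCM7 (y axis) against the mean normalised CPM of MCM2 to MCM6 (x axis), 1 point per library, coloured by group and numbered by library. Points lie in a lower set of 5 libraries below 14 CPM of MCM7 and an upper set of 7 above 25 CPM, and in the upper set MCM7 does not increase with the other subunits.

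The loading factors and their inhibitor were lower in level, and no group stood apart. ORC1, the largest subunit of the origin recognition complex, had 2.26 ± 0.444 CPM in wild type, 2.98 ± 0.652 for actb1 and 2.83 ± 0.434 in the kif5a line. CDC6 and CDT1, which bring the helicase to the origin, had log2 differences of -0.20 ± 0.28 and -0.17 ± 0.27 for actb1 and 0.13 ± 0.28 and 0.16 ± 0.26 in the kif5a line. GMNN had 0.38 ± 0.26 and 0.12 ± 0.26, and its highest value, 5.95 CPM, was in actb1 sponge 3. GINS2, part of the complex that activates the helicase, rested on 8 to 39 counts per library and had log2 differences of -0.29 ± 0.38 and 0.42 ± 0.37.

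Among the fork and nucleotide genes the 1 call was that of RRM2 (ENSDARG00000078069), and the counts of the 2 RRM2 identifiers went in opposite directions among the wild-type libraries. RRM2 encodes the small subunit of ribonucleotide reductase, which makes deoxyribonucleotides in S phase. RRM2 (ENSDARG00000078069) had 2.65, 0.948, 2.74 and 5.26 CPM in wild type, 0.765, 0.270, 0.0838 and 0.404 for actb1 and 0.873, 0.830, 0.589 and 0.530 for kif5a. These values rested on 71, 28, 72 and 111 counts in wild type, 23, 7, 3 and 10 for actb1 and 27, 24, 15 and 17 for kif5a. Every sponge library was below every wild-type library, a separation found downward for 5.25% of all genes for actb1 and 4.99% in the kif5a line. The log2 difference was -2.92 ± 0.60 in the actb1 line (edgeR adjusted p = 0.0471) and -2.02 ± 0.56 in the kif5a line (adjusted p = 0.197).

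RRM2 (ENSDARG00000020711) showed the opposite order among the wild-type libraries, with 1.90, 4.67, 1.94 and 0 CPM in wild type 1 to 4. The 0 counts of wild type 4 allow up to 0.142 CPM (3 counts in that library). The actb1 libraries had 2.46, 2.24, 4.53 and 3.03 CPM and the kif5a libraries 4.78, 4.19, 3.93 and 3.30 CPM. The share of the summed RRM2 counts that fell on RRM2 (ENSDARG00000078069) was 58.2%, 16.9%, 58.5% and 100% in wild type, 1.82% to 23.7% for actb1 and 13.0% to 16.6% in the kif5a line. Wild type 2 lay within the range of the sponge libraries by this share, and the other 3 wild-type libraries were above it.

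In wild type the sum of the 2 identifiers spread less than either of them (SD 1.92 and 1.78 CPM), with 5.03 ± 0.501 CPM in wild type, 3.44 ± 0.871 for actb1 and 4.76 ± 0.773 in the kif5a line (n = 4 each). With the 2 rows added before the fit, RRM2 had a log2 difference of -0.54 ± 0.20 for actb1 (edgeR adjusted p = 0.204) and -0.08 ± 0.20 in the kif5a line (adjusted p = 0.933), so the call was lost. The sources used here do not say how reads matching both identifiers were counted, and both values are uncertain for that reason. The call of RRM2 (ENSDARG00000078069) was kept in 2 of the 8 fits that each omit 1 library, with log2 differences of -3.54 to -2.44.

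**Figure D4:**
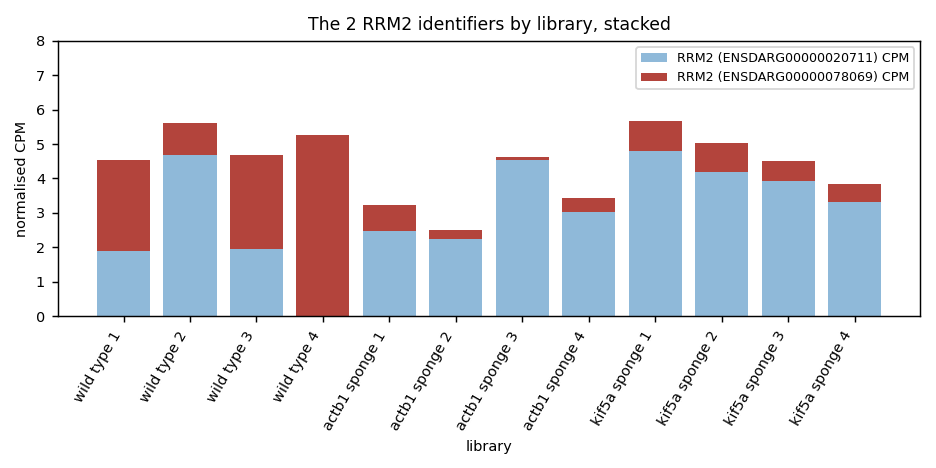
Normalised CPM (y axis) of the 2 RRM2 identifiers, stacked, in each of the 12 libraries (x axis). The total stays between 2.51 and 5.66 CPM while the part of RRM2 (ENSDARG00000078069) goes from the whole bar in wild type 4 to 1.82% in actb1 sponge 3.

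None of the other fork and nucleotide genes was called. PCNA had 55.3, 65.2, 59.4 and 57.3 CPM in wild type, 59.9, 54.4, 84.6 and 73.0 for actb1 and 72.1, 69.1, 67.0 and 61.4 for kif5a. Its groups overlapped, with log2 differences of 0.20 ± 0.13 and 0.18 ± 0.13 in the actb1 and kif5a lines (edgeR adjusted p = 0.439 and 0.638) and 0.01 ± 0.12 between them. RPA1 had 61.2 ± 1.82 CPM in wild type, 61.9 ± 7.05 for actb1 and 66.9 ± 1.42 for kif5a. The kif5a libraries of RPA1 lay just above those of wild type (65.4 to 68.6 against 59.7 to 63.5 CPM). Such an upward separation held for 4.26% of all genes, and the log2 difference of 0.13 ± 0.08 was not called (edgeR adjusted p = 0.62). FEN1 had log2 differences of 0.22 ± 0.15 and 0.13 ± 0.15, and TYMS, the thymidylate synthase gene, 0.20 ± 0.30 and 0.49 ± 0.30.

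RRM1, the large subunit of ribonucleotide reductase, had 18.9, 22.1, 19.8 and 18.8 CPM in wild type, 17.5, 16.7, 17.8 and 21.6 for actb1 and 29.5, 25.2, 21.6 and 20.9 for kif5a. Kif5a sponge 1 and 2 were above every other library, and the rest overlapped. The log2 difference was -0.40 ± 0.13 between the lines (edgeR adjusted p = 0.156), 0.29 ± 0.13 in the kif5a line (adjusted p = 0.428) and -0.11 ± 0.13 in the actb1 line (adjusted p = 0.676).

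The cyclins and their kinases had values on both sides of wild type in the actb1 line. CCNB1, the mitotic partner of CDK1, had 3.35, 4.13, 2.36 and 2.75 CPM in wild type, 4.89, 4.25, 5.67 and 5.01 for actb1 and 3.56, 2.66, 3.45 and 2.71 for kif5a. Each actb1 library was above all 8 others, and such an upward separation held for 4.08% of all genes against wild type and 4.68% against the kif5a line. The log2 difference was 0.65 ± 0.20 against wild type (edgeR adjusted p = 0.146; DESeq2 adjusted p = 0.0486) and 0.68 ± 0.20 against the kif5a line (edgeR adjusted p = 0.13; DESeq2 adjusted p = 0.0333). Leaving out 1 library gave values of 0.54 to 0.81 against wild type, called by edgeR in 0 of 8 fits.

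CDK1 itself lay on the other side, with 4.25, 5.59, 3.28 and 4.88 CPM in wild type, 3.16, 2.55, 3.80 and 2.58 for actb1 and 5.27, 3.88, 4.48 and 3.43 for kif5a. The groups overlapped, and the log2 difference was -0.57 ± 0.22 in the actb1 line (edgeR adjusted p = 0.218) and -0.08 ± 0.21 in the kif5a line (adjusted p = 0.942). CCNA2, the cyclin of S phase and G2, had 4.21, 4.71, 3.43 and 4.36 CPM in wild type, 2.89, 2.2, 3.66 and 3.23 for actb1 and 4.36, 3.84, 4.16 and 3.18 for kif5a. Of the actb1 libraries, only sponge 3 reached the wild-type range, and the log2 difference was -0.48 ± 0.19 in the actb1 line (adjusted p = 0.242).

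The B-type cyclin gene ccnb3 was below wild type in every sponge library. It had 3.69, 3.93, 4.08 and 4.07 CPM in wild type, 2.4, 2.74, 3.55 and 2.70 for actb1 and 2.55, 2.56, 3.53 and 2.37 for kif5a. In each line the third library came closest to wild type. Such a downward separation held for 5.25% of all genes for actb1 and 4.99% for kif5a. The log2 differences were -0.47 ± 0.19 in the actb1 line (edgeR adjusted p = 0.236) and -0.52 ± 0.19 in the kif5a line (adjusted p = 0.316), set against the same wild-type libraries.

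The G1 cyclins were not called either. CCND1, which opens G1 with CDK4 and CDK6, had 30.0, 37.8, 34.1 and 35.9 CPM in wild type, 28.2, 30.0, 30.5 and 29.4 for actb1 and 35.9, 33.7, 34.3 and 28.2 for kif5a. The actb1 libraries sat together at the low end, overlapping wild type 1, with a log2 difference of -0.22 ± 0.10 (edgeR adjusted p = 0.285). CCNE2, the cyclin of the G1 to S step, had 4.62, 4.71, 4.46 and 4.22 CPM in wild type, 3.56, 4.44, 2.82 and 3.43 for actb1 and 5.24, 4.50, 4.16 and 4.61 for kif5a. Actb1 sponge 2 lay among the wild-type values and the other 3 below them, with a log2 difference of -0.34 ± 0.16 (adjusted p = 0.318). CDK2 and CCNB2 had log2 differences of 0.11 to 0.34 in both lines, with standard errors of 0.23 and 0.34.

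**Figure D5:**
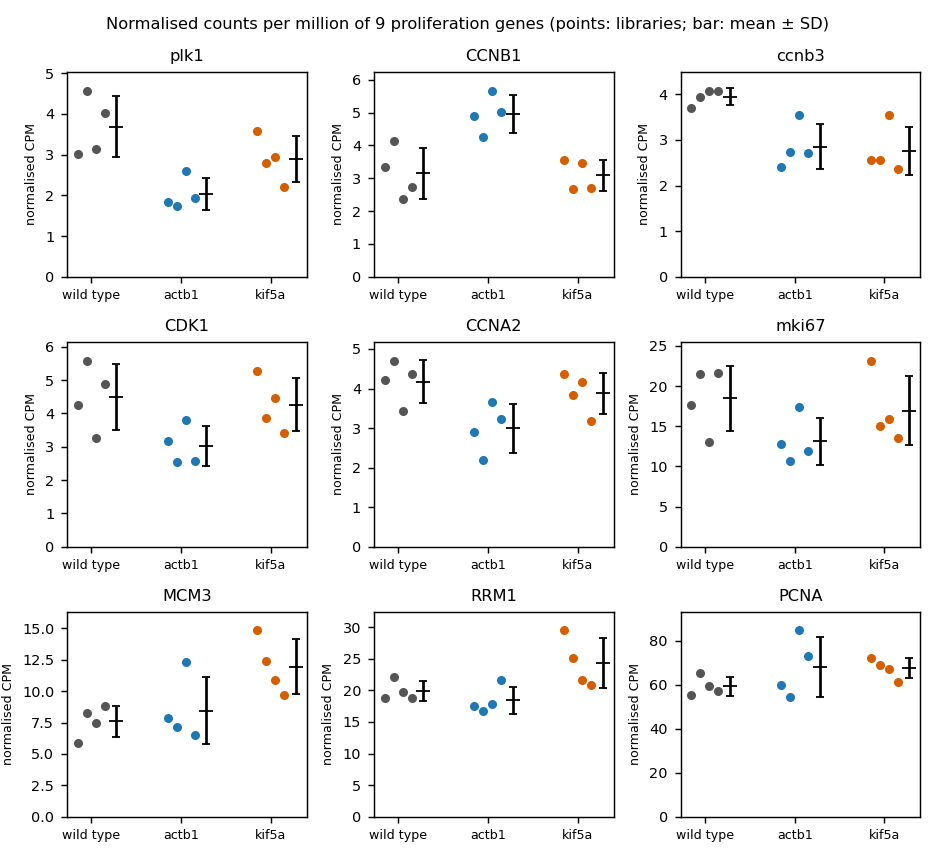
Normalised CPM (y axes, from 0) of 9 proliferation genes in the 3 groups (x axes); points are the 4 libraries of a group, the bar beside them is mean ± SD. The actb1 libraries lie above all others in CCNB1 and below all wild-type libraries in plk1, both sponge groups lie below wild type in ccnb3, and the groups overlap in CDK1, CCNA2, mki67, RRM1 and PCNA.

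All 9 genes of mitosis and chromosomes had a negative log2 difference in the actb1 line, with a median of -0.16 and a range of -0.86 to -0.03. edgeR called 0 of them and DESeq2 1, plk1. With 1 library left out the median ran from -0.38 (without actb1 sponge 3) to 0.0077 (without actb1 sponge 2). In the kif5a line 4 of 9 were positive, with a median of -0.12. Relative to wild type their mean log2 value was -0.26, -0.65, 0.19 and -0.41 in actb1 sponge 1 to 4, so that sponge 3 stood on the other side. The kif5a libraries stood at 0.11, -0.05, -0.10 and -0.26 and the wild-type libraries at -0.12, 0.14, -0.08 and 0.06.

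The polo-like kinase gene plk1, which drives entry into and exit from mitosis, had 3.02, 4.57, 3.13 and 4.03 CPM in wild type, 1.83, 1.74, 2.60 and 1.94 for actb1 and 3.59, 2.80, 2.94 and 2.21 for kif5a. Every actb1 library, sponge 3 included, was below every wild-type library, and the kif5a libraries overlapped both. For actb1, such a downward separation from wild type held for 5.25% of all genes. The log2 difference was -0.86 ± 0.22 in the actb1 line (edgeR adjusted p = 0.0996; DESeq2 adjusted p = 0.0188), -0.35 ± 0.22 in the kif5a line (edgeR adjusted p = 0.609) and -0.51 ± 0.22 between the lines (edgeR adjusted p = 0.286). With 1 library left out it ran from -0.98 to -0.74 for actb1 and was called by edgeR in 0 of 8 fits.

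The proliferation marker mki67, which encodes Ki-67, a coat protein of mitotic chromosomes, had 17.7, 21.5, 13.1 and 21.6 CPM in wild type, 12.7, 10.6, 17.3 and 11.9 for actb1 and 23.2, 15.1, 15.9 and 13.6 for kif5a. Actb1 sponge 3 lay within the wild-type range, so the groups overlapped. The other actb1 libraries were below it, sponge 1 only just below wild type 3. The log2 difference was -0.49 ± 0.21 in the actb1 line (edgeR adjusted p = 0.277) and -0.12 ± 0.21 in the kif5a line (adjusted p = 0.899). TOP2A ran from 10.8 CPM in actb1 sponge 2 to 23.1 CPM in kif5a sponge 1, with a log2 difference of -0.31 ± 0.21 in the actb1 line.

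None of the remaining mitotic genes was called. The aurora kinase genes aurka and AURKB, the checkpoint genes bub1 and bub1bb, CDC20, which activates the anaphase-promoting complex, and BIRC5 (survivin), a partner of aurora kinase B, had log2 differences of -0.20 to -0.03 for actb1 and of -0.36 to 0.18 in the kif5a line. AURKB was the 1 of these whose groups separated, with 2.03 to 2.43 CPM in the kif5a line against 2.54 to 3.55 in wild type. Its log2 difference was -0.36 ± 0.28 (edgeR adjusted p = 0.697), and such a downward separation held for 4.99% of all genes.

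The spread between libraries was above the all-gene median in 28 of the 35 members. The biological coefficient of variation, the spread within groups that edgeR fits beyond counting error, had a median of 24.2% over the 35 members and 19.5% over all genes tested. It ran from 10.2% for RPA1 to 39.3% for MCM7 and to 52.9% and 69.8% for the RRM2 identifiers. The all-gene median was not matched for level, and the members were lower in level (median 2.08 against 5.56 RPKM in wild type). The part of level in the larger spread was not tested.

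Other genes of the pathway were taken from 5 lists by role. limma voom called 0 of them in every comparison, and edgeR 0. For actb1 against wild type, DESeq2 called 1 of the other S phase genes and 2 of the other mitosis genes. It called 2 of the genes of G1 control and cell cycle brakes, 3 of the radial glia genes and 0 of the committed progenitor genes. For kif5a against wild type it called 1, 1, 0, 1 and 0 in the same order. DESeq2 called 4.75% and 2.22% of all genes in these comparisons. At the unadjusted p under 0.05 counted below for each list, edgeR had 7.8% of all genes higher and 8.85% lower for actb1, and 4.54% higher and 6.78% lower for kif5a. Of 46 other S phase genes tested, 0 were called in any comparison (edgeR), and 37 were positive in the kif5a line (median 0.15) against 20 in the actb1 line (median -0.04). With an unadjusted p under 0.05, 10 of them were higher and 0 lower in kif5a, and 5 higher and 3 lower in actb1. ORC3, another subunit of the origin recognition complex, had 5.18 to 5.40 CPM in wild type and 7.18 to 8.57 in the kif5a line (log2 difference 0.56 ± 0.13, edgeR adjusted p = 0.106). Its actb1 libraries, at 5.44 to 7.15 CPM, also lay above all of wild type. In the kif5a line RFC2, of the clamp loader, had a log2 difference of 0.47 ± 0.13 and POLE, a replicative polymerase, of 0.69 ± 0.21 (adjusted p = 0.226 and 0.238). In the actb1 line POLD2, a subunit of a replicative polymerase, and RFC2 had log2 differences of 0.47 ± 0.15 and 0.37 ± 0.13 (edgeR adjusted p = 0.148 and 0.202). The kif5a libraries of POLD2 also lay above all of wild type, at 6.64 to 7.85 against 4.69 to 5.66 CPM.

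Of 55 other mitosis genes tested, 0 were called in any comparison (edgeR), and 44 were negative in the actb1 line (median -0.27) against 26 in the kif5a line (median 0.04). With an unadjusted p under 0.05, 1 was higher and 10 were lower for actb1, and 2 higher and 1 lower in kif5a. NUSAP1, a spindle protein gene, had 4.19 to 4.55 CPM in wild type and 2.59 to 3.10 in the actb1 line, without overlap (log2 difference -0.63 ± 0.17, edgeR adjusted p = 0.107). CCNF, the cyclin F gene, had 2.09, 7.11, 21.1 and 10.1 CPM in wild type against 1.93 to 2.97 CPM in the 8 sponge libraries, with log2 differences of -2.19 ± 0.50 and -2.05 ± 0.49 (edgeR adjusted p = 0.0739 and 0.124). Wild type 1 lay among the sponge libraries in CCNF, and the other 3 were above them. In the kif5a line PRC1 (ENSDARG00000100918) and CENPI had log2 differences of 0.77 ± 0.35 and 0.36 ± 0.17.

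Of 42 genes of G1 control and cell cycle brakes, 0 were called (edgeR), with medians of -0.08 and -0.03 in the actb1 and kif5a lines. At an unadjusted p under 0.05, 3 were higher and 3 lower in the former, 5 higher and 3 lower in the latter. cdkn1a, the CDK inhibitor p21, had 0.496 to 0.982 CPM in wild type, 1.31 to 1.94 for actb1 and 0.873 to 1.59 in the kif5a line. Its actb1 libraries lay above all of wild type (log2 difference 1.28 ± 0.29, edgeR adjusted p = 0.0739). CCND2 (ENSDARG00000070408), a D-type cyclin, had a log2 difference of -0.78 ± 0.23 and the growth regulator MYCN of -0.28 ± 0.09 in the actb1 line (edgeR adjusted p = 0.126 and 0.157). The kif5a libraries of CCND2, at 2.18 to 3.34 CPM, also lay below the 3.35 to 4.71 CPM of wild type. In the kif5a line the stress-induced gene GADD45B had -0.72 ± 0.23, the retinoblastoma gene RB1 0.34 ± 0.11 and TFDP1, the partner of E2F factors, 0.42 ± 0.17, none called.

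Of 32 radial glia and neural stem cell genes 0 were called (edgeR), with medians of -0.02 and -0.06. At an unadjusted p under 0.05, 9 were higher and 2 lower for actb1, and 3 higher and 0 lower for kif5a. FABP7 (ENSDARG00000007697), a fatty acid binding protein of radial glia, had 713 ± 43.6 CPM in wild type, 964 ± 143 for actb1 and 923 ± 77.1 in the kif5a line, with log2 differences of 0.44 ± 0.11 and 0.37 ± 0.11 (edgeR adjusted p = 0.100 and 0.243). id2b, an inhibitor of differentiation factors, had a log2 difference of 0.44 ± 0.10 in the actb1 line (adjusted p = 0.0581), and nes (nestin) of 0.43 ± 0.12 in the kif5a line (adjusted p = 0.226). The actb1 libraries of nes, at 25.8 to 35.8 CPM, also lay above the 21.4 to 24.2 CPM of wild type. SLC1A3 (ENSDARG00000043148), a glutamate transporter gene, had a log2 difference of 0.57 ± 0.17 in the actb1 line. SLC1A2 (ENSDARG00000052138), another, had 0.348 to 1.1 CPM in the 5 libraries with high photoreceptor sums and 0 to 0.0623 CPM in the other 7, so that both lines held high and low libraries. Of 30 genes of committed progenitors and newborn neurons 0 were called (edgeR), with medians of -0.04 and 0.02, and 1 was lower with an unadjusted p under 0.05 for actb1, 1 higher and 1 lower for kif5a. DLX2 (ENSDARG00000079964), DLX1 and HES6 (ENSDARG00000007097) had log2 differences of -0.52 ± 0.23, -0.41 ± 0.21 and -0.60 ± 0.30 in the actb1 line. In the kif5a line HES6 (ENSDARG00000007097) had -0.79 ± 0.30, tubb2b 0.30 ± 0.13 and EOMES -0.60 ± 0.39. EOMES had 78.9, 38.1, 20.0 and 115 CPM in the kif5a libraries and 78.7 to 116 CPM in wild type. Its actb1 libraries, at 125 to 167 CPM, lay above all of wild type.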

How the data were processed

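Library preparation used Illumina's TruSeq RNA kit, per the labels' protocols, which marks no strand, so reads of overlapping antisense genes cannot be told apart. The tools named are featureCounts 1.4.6-p4, STAR 2.4.1d and bcl2fastq 1.8.4, and the build GRCz10, per the submitters' processing notes. Gene-level read counts, as deposited, were the input of every test. The authors also deposited RPKM values, whose library totals were recycled down the genes, so they served only to recover the gene lengths (across 6540 genes that exceeded 500 counts in each library, the implied length had a median coefficient of variation of 1.48e-05 within a gene).

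Groups came from the strain label, and replicates were numbered in accession order. Normalised CPM use TMM factors. Tests used edgeR 4.0.16 in R 4.3.3, with DESeq2 1.42.0 and limma 3.58.1 as alternatives, and were first tested on simulated data. No set test was run. The floor given for a count of 0 covers counting error only, SDs are between libraries and standard errors come from the edgeR fit. Symbols came from a supplied name table (26269 of 32105 identifiers). The members and lists were chosen with earlier results of these data known. Named in full were the 12 members of smallest p in any comparison, with PCNA, mki67 and CCND1 added where not among them, and the 3 genes of smallest p from each of 5 pathway lists per comparison with wild type. Some genes this rule names are not reported here. Promoter and protein comparisons were planned and not run, since no sequence was used here.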

Additional observations from a re-analysis of the deposited data

Results flagged for a closer look

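In groups of 4 libraries, a library was picked out where its gap to the nearest other exceeded the critical share of the group's range (Dixon's test at 95%). Chance gives about 1 such pick in 20 groups, and 3 were found in 108 gene and group pairs, which is below that rate. MCM7 had 30.5 CPM in actb1 sponge 3, far above the 10.3 to 10.8 CPM of the other 3 libraries of that line. CDC20 had 3.88 CPM in actb1 sponge 3, against 3.01 to 3.09 CPM in the others. ccnb3 had 3.53 CPM in kif5a sponge 3, against 2.37 to 2.56 CPM in the others.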

How the results depend on the processing

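No paired analysis was possible because the library titles carry no shared replicate numbers, and the numbers used here only follow accession order. For the actb1 line against wild type, edgeR called 1 member, DESeq2 3, and limma voom and a fit of only the 2 groups compared 0. With a minimum of 1 CPM in at least 4 libraries 0 were called because the called RRM2 identifier was no longer tested. In alternatives chosen after seeing the data, 0 were called without wild type 2 and 4 (highest in leukocyte genes), without the 5 libraries highest in photoreceptor genes and with the RRM2 identifiers summed. Without those 5, actb1 sponge 4 alone stands for its line and is assumed to vary like the other groups, so that 0 says nothing about stability. The log2 difference of RRM2 (ENSDARG00000078069) was -2.99 by limma voom, -2.92 with only 2 groups and -2.82 without wild type 2 and 4, against -2.92 as reported. Leaving out 1 library gave 0 to 1. DESeq2 called 1 member in each other comparison, where edgeR called 0.

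Some uncalled differences changed sign. Without the photoreceptor-high libraries, the single remaining actb1 library against wild type gave 0.17 for RRM1 and -0.17 for MCM3. Without wild type 2 and 4, MCM7 gave 0.25 for actb1, and kif5a against wild type gave 0.11 for CCNB1, 0.18 for CDK1, 0.024 for CCNA2, 0.14 for mki67 and 0.044 for CCND1. limma voom gave -0.0037 for PCNA between the lines. Leaving out 1 library gave MCM3 values of -0.057 to 0.28 for actb1 against wild type. For kif5a against wild type it gave -0.14 to 0.13 for CCNB1, -0.20 to 0.045 for CDK1, -0.012 to 0.10 for CCNE2 and -0.12 to 0.012 for CCND1. Between the lines it gave -0.058 to 0.22 for ccnb3 and -0.092 to 0.14 for PCNA. The cause of these changes was not tested. Of 624 values of named genes under an alternative, 588 kept direction and side of the threshold, 21 changed sign, 11 lost a call and 4 gained one. All 11 lost calls were of RRM2 (ENSDARG00000078069) for actb1 against wild type, the only call as reported. Every other value started uncalled and could not lose a call, so the 588 say little about how stable that call was. GINS2 and CCNB2 rest on few counts, which limits what could be detected. The called RRM2 identifier also rests on few counts in the actb1 line, 3 to 23 per library. In the simulated data for actb1 against wild type, edgeR recovered 11.9% of 1.5-fold, 47.8% of 2-fold and 81.8% of 4-fold changes. It also called 8 genes that had not been changed. Differences of the members of 2-fold or less could thus often go uncalled. The changed genes were drawn from all genes tested, while the members had a lower median level and a larger median spread. Recovery for the members themselves was not simulated.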
